A study of Caenorhabditis elegans with 92 samples.

Results

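The binding of KLE-2 in L3 larvae was set against its binding in embryos of the same wild-type strain, N2, as 2 lists of ChIP-seq peaks that together held 3898 of the 20438 peaks in the 17 lists read. The L3 list held 2424 peaks and the embryo list 1474. Both lists were taken whole, so no peak was chosen here for its height or position. The authors had already filtered both lists by p-value and by presence in most replicates. Peaks that shared at least 1 base with a peak of the other stage are called shared, and the others L3-only or embryo-only.

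KLE-2 is the kleisin subunit of condensin II, a ring-shaped complex that closes around DNA and compacts chromosomes in mitosis and meiosis. Condensin II consists of the SMC proteins MIX-1 and SMC-4, KLE-2 and the HEAT-repeat subunits HCP-6 and CAPG-2. Condensin I has the same SMC pair with DPY-26, DPY-28 and CAPG-1, and condensin IDC, the dosage compensation form that lowers X-linked transcription in hermaphrodites, carries DPY-27 in place of SMC-4. L3 is the third larval stage, when most somatic divisions of embryogenesis are over while germ cells multiply.

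The L3 worms were N2 animals grown in synchrony in liquid, frozen, broken in a mill and fixed with 1% formaldehyde for 10 minutes. The embryos were N2 embryos of mixed stages taken from gravid adults by bleaching and fixed with 2% formaldehyde for 30 minutes. The L3 list pools 4 immunoprecipitations, 2 with antibody SDQ3942 and 2 with SDQ3898, read against 2 input libraries. The embryo list pools 3 immunoprecipitations, 2 with SDQ3942 and 1 with SDQ3898, read against 5 input libraries, and both antibodies were raised against the same antigen. Of 92 samples in the series, these 7 gave the KLE-2 lists compared here. Whole larvae and mixed embryos both hold many tissues, so fewer cells bound at a site and less KLE-2 per cell cannot be told apart.

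Each stage was 1 pooled list, with no list per replicate, so there is no replicate error for any value and no test between stages was made. Intervals beside shares are exact Clopper-Pearson 95% intervals, which cover counting error only, and peaks of 1 list are not independent replicates. Stage, fixation, breakage of the worms, the number of replicates, the mix of antibodies and the inputs differed together between the lists. Their parts in any difference cannot be told apart. The filter for peaks found in most replicates acted on 4 immunoprecipitations in L3 larvae and 3 in embryos, so it was not the same for both lists. The lists give no sequencing depth, and its part was not tested.

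The L3 list was the longer one, and most embryo peaks lay within it. Of 2424 L3 peaks, 1059 overlapped an embryo peak, which is 43.7% (41.7 to 45.7%), and 1365 were L3-only. Of 1474 embryo peaks, 1068 overlapped an L3 peak, which is 72.5% (70.1 to 74.7%), and 406 were embryo-only. Overlaps were nearly all of 1 peak with 1 peak, so the gap between these shares follows from the unequal length of the lists and is no finding of its own. With L3 peaks reduced to the 1474 of highest score, 56.7% of L3 and 57.6% of embryo peaks overlapped. L3 peaks covered 4.59 Mb, against 2.50 Mb for embryo peaks, with 1.69 Mb in common. The common bases were 36.8% of the bases of L3 peaks and 67.6% of those of embryo peaks. The centres of 40.8% of L3 peaks lay in an embryo peak, against 2.50% of the genome covered by embryo peaks. The centres of 71.0% of embryo peaks lay in an L3 peak, against 4.59% covered by L3 peaks.

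Shared sites were nearly always single peaks in both stages. In 1006 cases 1 L3 peak and 1 embryo peak overlapped only each other, and 25 L3 peaks and 15 embryo peaks had more than 1 partner. The centres of the 1006 pairs lay a median of 78.8 bp apart, and 687 pairs (68.3%) had centres within 200 bp. In the median pair the shorter peak lay wholly inside the longer one. Stage-only peaks were not mainly near misses. L3-only peaks lay a median of 18.4 kb from the nearest embryo peak, and 42 of them (3.08%) lay within 500 bp of one. Embryo-only peaks lay a median of 11.7 kb from the nearest L3 peak, with 18 of 406 (4.43%) within 500 bp.

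L3 larvae had more peaks than embryos on the autosomes but not on the X. On each of the 5 autosomes the L3 list held 1.64 to 1.88 times as many peaks as the embryo list, whereas on the X the lists were of equal length. The X, where condensin IDC acts, held 234 L3 peaks and 236 embryo peaks, a ratio of 0.992. The X share was 9.65% (8.51 to 10.9%) of L3 peaks and 16.0% (14.2 to 17.98%) of embryo peaks, and the X made up 17.7% of the genome length. The autosomes held 26.6 L3 peaks per Mb, against 15.0 embryo peaks per Mb. The X held 13.2 L3 peaks per Mb, against 13.3 embryo peaks per Mb. These counts depend on the length of the lists. With the 1474 L3 peaks of highest score, the X held 122 L3 and 236 embryo peaks, and the autosomes 1352 L3 and 1238 embryo peaks.

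**Figure D1:**
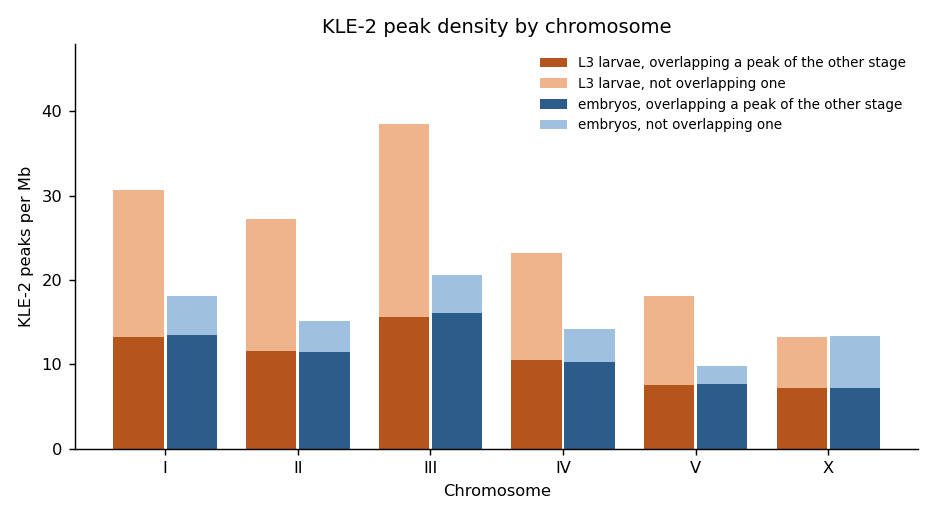
Bars give KLE-2 peaks per Mb on each chromosome for L3 larvae (orange, left of each pair) and embryos (blue, right), with shared peaks in the dark part and stage-only peaks in the light part. Each autosome had more L3 than embryo peaks per Mb, from 18.1 against 9.83 on V to 38.6 against 20.5 on III, while the X had 13.2 against 13.3.

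Equal numbers on the X did not mean the same places. On the X 107 of 234 L3 peaks were L3-only (45.7%) and 109 of 236 embryo peaks were embryo-only (46.2%). On the autosomes 1258 of 2190 L3 peaks were L3-only (57.4%), but only 297 of 1238 embryo peaks were embryo-only (23.99%). Over single autosomes the L3-only share ran between 54.7% on IV and 59.5% on III, and the embryo-only share between 21.6% on III and 27.2% on IV. The X therefore held 109 of all 406 embryo-only peaks but 107 of 1365 L3-only peaks. Common bases were 46.6% of L3 and 50.2% of embryo peak bases on the X, against 35.8% and 70.7% on the autosomes.

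The lower X share in L3 larvae was also seen in the calls before the replicate filter. Peaks in the lists carry numbers that rise along the chromosomes with gaps, which were taken as the numbers of all calls on the pooled reads, with the gaps as calls dropped for absence from most replicates. The largest number was 3710 in the L3 list and 2079 in the embryo list. The X took 408 L3 numbers (10.997%) and 354 embryo numbers (17.03%). On the X 57.4% of L3 numbers and 66.7% of embryo numbers were kept, against 66.3% and 71.8% on the autosomes.

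The numbers also limit what a stage-only peak means. Among 1357 L3-only peaks with an embryo peak on both sides, 583 (43.0%) lay between embryo peaks with consecutive numbers, where the pooled embryo reads gave no call. Among 404 embryo-only peaks with an L3 peak on both sides, 130 (32.2%) lay between L3 peaks with consecutive numbers. The other 774 L3-only and 274 embryo-only peaks lay where at least 1 dropped call of the other stage may have been. On the X the shares with no call were 27.1% of L3-only and 25% of embryo-only peaks, against 44.3% and 34.8% on the autosomes. The positions of the dropped calls are not used here. A stage-only peak is thus a site with no kept peak in the other stage, and an absence of binding was not shown.

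Along the autosomes, L3 and embryo peaks followed the same broad layout. Each autosome was divided into a left, a middle and a right part of equal length. The outer parts together held 65.5% (63.5 to 67.5%) of autosomal L3 peaks and 66.2% (63.4 to 68.8%) of autosomal embryo peaks, close to their share of the length. The outer parts held 65.2% of L3-only and 64.0% of embryo-only peaks. Over single autosomes the L3-only share ran from 63.4% on II to 67.2% on I. The embryo-only share, from fewer peaks, ran from 48.9% of 45 peaks on V to 73.5% of 68 peaks on I. The left and right parts were not alike. On III the left part held 41.1% of L3 and 45.9% of embryo peaks, and on IV 41.6% of L3 and 37.4% of embryo peaks. On V the middle part held the most peaks in both stages, at 38.6% in L3 larvae and 43.9% in embryos. On the X the outer parts held 73.5% of L3 and 75% of embryo peaks.

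Counts in 1 Mb bins moved together. Over the 97 whole bins of the genome, Spearman's rho between L3 and embryo counts was 0.62, over the 80 autosomal bins 0.70 and over the 17 X bins 0.84, as a description, since neighbouring bins share peaks' surroundings and mappability. L3 peaks outnumbered embryo peaks in 77 of 80 autosomal bins and in 9 of 17 X bins. The median autosomal bin held 25 L3 and 14 embryo peaks, and the median X bin 13 and 14.

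**Figure D2:**
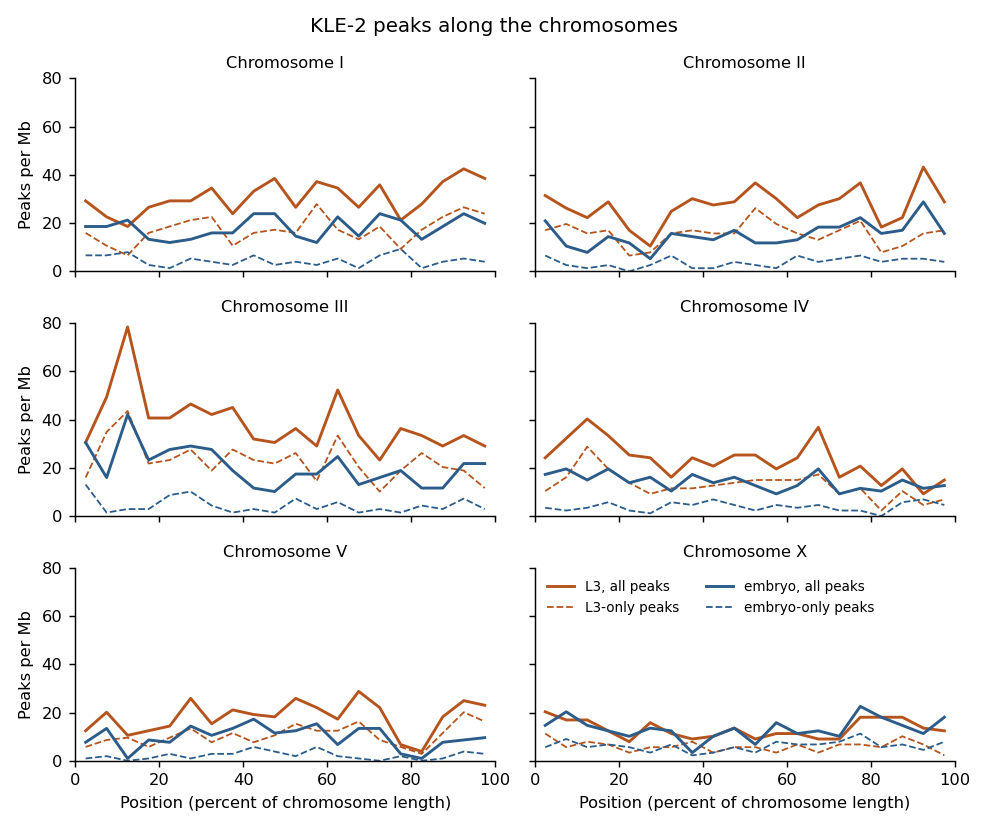
Lines give KLE-2 peaks per Mb in steps of 5% of each chromosome's length, against position in percent of chromosome length. Solid lines stand for all peaks and dashed lines for stage-only peaks, in orange for L3 larvae and blue for embryos. L3 lines run above embryo lines along most of the autosomes and beside them on the X, and the highest point lies between 10 and 15% of the length of III, with 78.4 L3 and 42.1 embryo peaks per Mb.

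The densest region in both stages was the second Mb of chromosome III. Between 1 and 2 Mb of III there were 75 L3 peaks and 35 embryo peaks, and 45 L3 peaks were L3-only, the highest count of any bin. These 45 covered 118 kb with a median width of 1804 bp, and 13 of them had the highest score the list allows. Embryo peaks of HCP-6 (16), CAPG-2 (11) and AMA-1 (15), the large subunit of RNA polymerase II, were there too, but only 1 of the 45 overlapped HCP-6 or CAPG-2, and 42 overlapped none of the 10 other embryo proteins described below. The bins next in L3-only peaks were 8 to 9 Mb of III with 31, 2 to 3 Mb of IV with 28, 11 to 12 Mb of III with 26 and 3 to 4 Mb of III with 25. Of their L3-only peaks 7 of 31, 5 of 28, 8 of 26 and 7 of 25 overlapped HCP-6 or CAPG-2, each a larger share than 1 of 45. The low share was not particular to this bin. In the adjoining bin, 2 to 3 Mb of III, 1 of 23 L3-only peaks overlapped HCP-6 or CAPG-2. On V it was 0 of 19 from 18 to 19 Mb and 0 of 16 from 19 to 20 Mb.

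Embryo-only peaks were spread more thinly. The bin from 3 to 4 Mb of III had the most, 12 beside its 25 L3-only peaks. It was followed by 0 to 1 Mb of III with 10 embryo-only peaks beside 18 L3-only ones, 13 to 14 Mb of the X with 10 beside 6, 11 to 12 Mb of I with 9 beside 8 and 11 to 12 Mb of II with 8 beside 19.

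L3 peaks were slightly wider than embryo peaks on the autosomes but not on the X. The median width was 1392 bp in the L3 list and 1340.5 bp in the embryo list. Shared peaks had larger median widths than stage-only ones in both stages. Medians were 1490 bp for L3 shared against 1319 bp for L3-only peaks, and 1389.5 bp for embryo shared against 1238.5 bp for embryo-only peaks. A wider peak meets another list by 1 base more readily, so this order is favoured in advance. On the X the upper quartile was 1672.5 bp for L3 shared and 2264 bp for L3-only peaks, with medians of 1288 and 1205 bp. In the 879 autosomal pairs the L3 peak was the wider one in 587 (66.8%), with a median ratio of L3 to embryo width of 1.06. In the 127 X pairs it was the wider one in 37 (29.1%), with a median ratio of 0.953. Median widths in the X pairs were 1288 bp in L3 larvae and 1409 bp in embryos. The part of crosslinking in these widths was not tested.

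**Figure D3:**
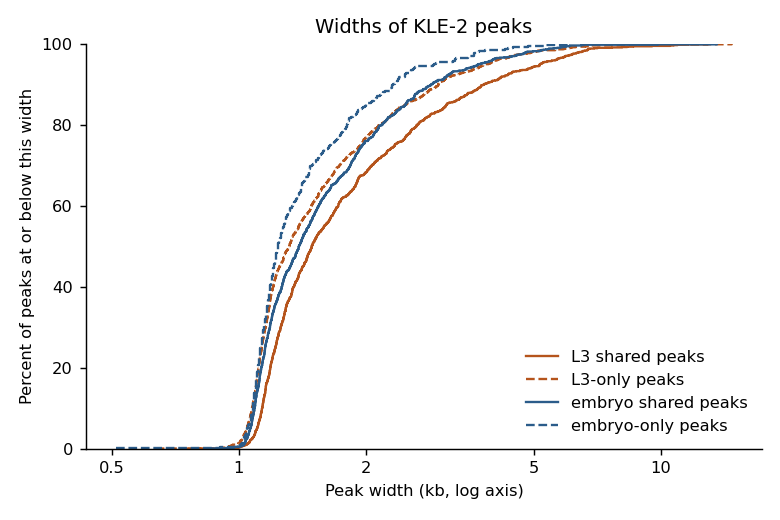
Each line gives the percent of peaks at or below a width in kb (log axis) for shared (solid) and stage-only (dashed) peaks of L3 larvae (orange) and embryos (blue). The L3 shared line lies farthest right, with a median of 1490 bp, and the embryo-only line farthest left, with a median of 1238.5 bp.

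The L3 list had a longer tail of wide peaks. Peaks over 5 kb numbered 85 in L3 larvae (3.51%) and 21 in embryos (1.42%), and 26 of the 85 were L3-only. The widest was L3-only, at chrII:10541584-10556312 (14729 bp), where embryo CAPG-2 and AMA-1 had peaks and HCP-6 had none. The next was also L3-only, at chrIII:1176943-1189848 (12906 bp) in the dense region of III, and overlapped no other wild-type embryo list. The other 3 of the widest 5 were shared. These were chrII:1232779-1245665 (12887 bp), chrIII:7726696-7738287 (11592 bp) and chrIII:343019-353982 (10964 bp), and all 3 overlapped embryo peaks of HCP-6 and of SCC-2, the cohesin loader.

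Whether a peak was shared went with its score. The score is minus 10 times the log10 of the p-value from the peak caller and stops at 3100, so scores were used as ranks within a list and not compared between lists. The share of L3 peaks that overlapped an embryo peak was 16.9% (12.4 to 22.2%) in the lowest 10% by score. It was 76.2% (72.4 to 79.7%) among L3 peaks at the cap of 3100. Steps 9 and 10 of the L3 list, of 10% each, held only peaks at the cap. Genome order and not score divides these steps, and their shares were 73.6% and 77.4%. The share of embryo peaks that overlapped an L3 peak was 54.7% (46.3 to 62.9%) in the lowest 10% and 96.6% (92.3 to 98.9%) in the highest. The cap held 547 L3 peaks (22.6%) and 111 embryo peaks (7.53%). At the cap 417 of 547 L3 peaks were shared (76.2%), and 108 of 111 embryo peaks (97.3%). Nearly every embryo site at the cap was thus a peak in L3 larvae, while 130 of the L3 sites at the cap had no embryo peak. The cap holds unlike parts of the lists, so these shares are not on equal terms. Among the top 500 peaks of each list, with ties broken by width, 383 L3 (76.6%) and 446 embryo peaks (89.2%) were shared.

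**Figure D4:**
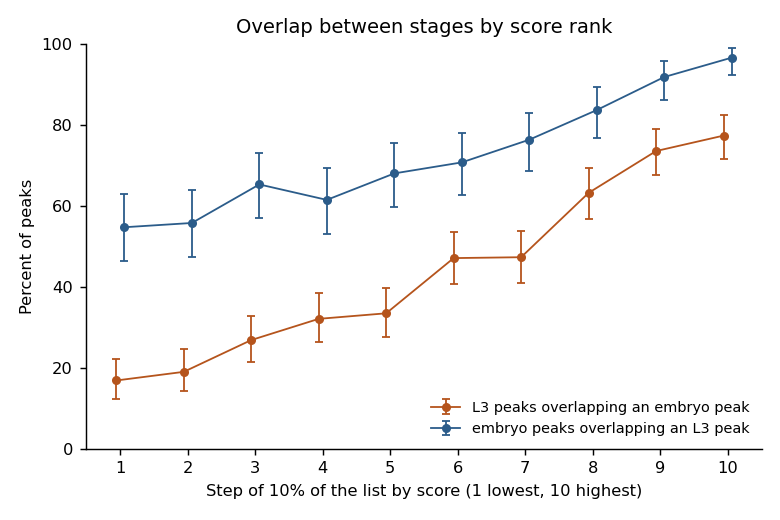
Points give the percent of peaks that overlap a peak of the other stage in each of 10 equal steps of a list by score, for L3 peaks (orange) and embryo peaks (blue), with exact 95% intervals for counting error. The L3 share is 16.9% in the lowest and 77.4% in the highest step, and the embryo share 54.7% and 96.6%. L3 steps 9 and 10 and part of step 8 hold peaks tied at the score cap of 3100, which genome order and not score divides.

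Ranks within the pairs were only loosely alike on the autosomes. Spearman's rho of L3 and embryo scores was 0.35 over 879 autosomal pairs and 0.60 over 127 X pairs, as a description in which the cap ties many L3 peaks. Of 389 L3 peaks at the cap among the pairs, 81 had an embryo partner at the cap, and 101 embryo peaks in pairs were at the cap.

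For each chromosome 1 high-scoring shared site was chosen, as the pair with the highest lower rank. All L3 peaks at the cap have the same rank, so many pairs tie, 81 of them with both peaks at the cap. Ties were broken by width, so these are not the strongest sites by score alone. The embryo peak of the pair on IV was below the cap, with a score of 2346.58. On the X this was chrX:11603139-11606853 in L3 larvae and chrX:11603042-11607090 in embryos, 3715 and 4049 bp wide, with 3715 bases in common, and embryo peaks of all 8 other condensin subunits lay there. On V it was chrV:9339046-9344999 in L3 larvae and chrV:9339047-9345006 in embryos, so that the left edges differed by 1 base, and 7 of 8 other subunits had an embryo peak there. On I the pair was chrI:5307956-5313993 in L3 larvae and chrI:5307920-5314013 in embryos, on II chrII:11756074-11762617 and chrII:11756832-11762004, on III chrIII:12611920-12617831 and chrIII:12611063-12617627, and on IV chrIV:4747489-4750690 and chrIV:4747248-4750708. HCP-6, CAPG-2, SMC-4 and SCC-2 had embryo peaks at all 6 pairs. An IgG control peak also lay at the pairs on II and IV.

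The sites were then set against embryo lists of other proteins, which were all made from wild-type embryos and not from larvae. Shared sites were mostly sites of the other condensin II subunits. Of 1059 L3 shared peaks, 797 overlapped an embryo peak of HCP-6 or CAPG-2, which is 75.3% (72.5 to 77.8%). Of 1365 L3-only peaks, 309 did, which is 22.6% (20.4 to 24.95%). Of 406 embryo-only peaks, 265 did, which is 65.3% (60.4 to 69.9%). HCP-6 and CAPG-2 peaks together covered 2.94% of the autosomes and 2.84% of the X. L3-only peaks by definition lie outside embryo KLE-2 peaks, whereas shared and embryo-only sites have one. Embryo lists of the partners of KLE-2 thus favour those sets in advance, and the order of these shares is no finding of its own. The same limit applies to the embryo lists below. The centres of 20.8% of L3-only peaks, as split by the same centre rule, lay in an HCP-6 or CAPG-2 peak.

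On the autosomes L3-only sites had the lowest overlap of the 3 sets for HCP-6, CAPG-2, SMC-4 and MIX-1. HCP-6 peaks overlapped 18.8% of 1258 L3-only, 68.1% of 932 L3 shared and 60.6% of 297 embryo-only peaks. CAPG-2 overlapped 6.995% of L3-only, 45.9% of L3 shared and 16.8% of embryo-only peaks. SMC-4 overlapped 1.59% of L3-only, 38.4% of L3 shared and 30.0% of embryo-only peaks. MIX-1 overlapped 1.99% of L3-only, 25.1% of L3 shared and 28.6% of embryo-only peaks. Peaks of HCP-6 covered 2.55% of the autosomes, those of CAPG-2 1.29%, of SMC-4 1.19% and of MIX-1 0.876%. A peak overlaps a list by 1 base more readily than these coverages. L3-only sites, which lack an embryo KLE-2 peak by definition, were thus low in all 4 embryo subunit lists. Embryo-only sites were close to shared sites in HCP-6, SMC-4 and MIX-1 but not in CAPG-2.

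**Figure D5:**
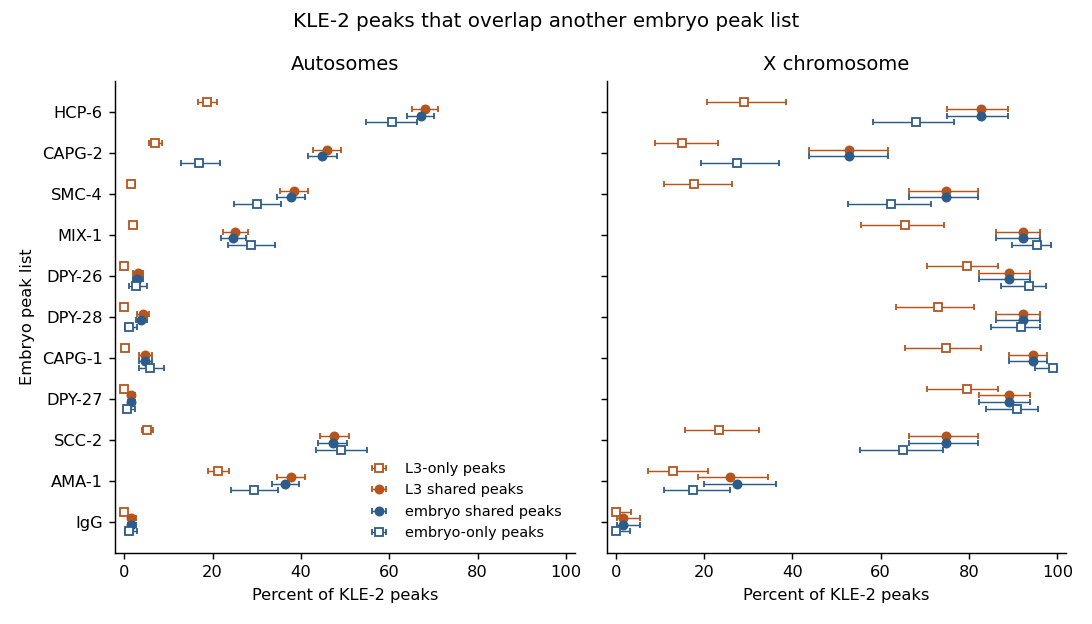
Points give the percent of KLE-2 peaks that overlap a peak of each embryo list named at the left, on the autosomes (left panel) and the X (right panel), with exact 95% intervals for counting error. Open squares are stage-only and filled circles shared peaks, in orange for L3 larvae and blue for embryos. On the autosomes L3-only peaks lie lowest for HCP-6 (18.8%) and SCC-2 (5.17%), and on the X they overlap DPY-26 in 79.4% of cases but HCP-6 in 29.0%.

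The cohesin loader and RNA polymerase II differed in how far they set L3-only sites apart. SCC-2, which the deposited list names PQN-85, overlapped 5.17% (65 of 1258) of autosomal L3-only, 47.5% of L3 shared and 49.2% of embryo-only peaks. AMA-1 overlapped 21.3% (268 of 1258) of autosomal L3-only, 37.8% of L3 shared and 29.3% of embryo-only peaks. AMA-1 peaks covered 8.29% of the autosomes and SCC-2 peaks 1.85%, so 21.3% and 5.17% are not on equal terms. No L3-only peak overlapped an IgG peak (0 of 1365, where a limit of 3 counts allows a share of up to 0.220%), against 17 L3 shared and 3 embryo-only peaks. The IgG list came from embryos and held 23 peaks, of which 20 overlapped an embryo KLE-2 peak. Few were thus left for L3-only peaks to meet, and no IgG list of L3 larvae was read, so the 0 cannot tell whether L3-only peaks are free of background.

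Most of the autosomal L3-only sites had no peak of any other protein in embryos. Of 1258, 757 (60.2%) overlapped none of the 8 other condensin subunits, SCC-2 or AMA-1, against 169 of 932 L3 shared (18.1%) and 60 of 297 embryo-only peaks (20.2%). By number of condensin subunit lists, 970 L3-only peaks overlapped 0, 219 overlapped 1, 57 overlapped 2, 9 overlapped 3 and 3 overlapped 4. The top 25% of the L3 list by score was no exception. Of 137 autosomal L3-only peaks there, 28 (20.4%) overlapped HCP-6 or CAPG-2, against 310 of 420 L3 shared peaks (73.8%). In the lowest 25% the shares were 20.6% of 437 L3-only and 72.8% of 92 L3 shared peaks. By width the L3-only share was 26.0% in the narrowest 25% and 14.2% in the widest 25%.

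On the autosomes, overlap with HCP-6 or CAPG-2 went with score in the embryo list, in embryo-only and shared peaks alike. In autosomal peaks of the L3 list it did so in neither set. On the X, 39 of 39 L3 shared peaks in the top 25% by score overlapped, against 22 of 28 in the lowest 25%. In the lowest 25% of the embryo list 54 of 118 autosomal embryo-only peaks (45.8%) overlapped HCP-6 or CAPG-2, and in the 25% just above the median 52 of 70 (74.3%). Autosomal embryo shared peaks of the same score ranges overlapped in 54.3% and 80.6% of cases.

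On the X most L3-only sites overlapped peaks of condensin I-IDC. DPY-26 overlapped 79.4% of 107 X L3-only, 89.0% of 127 L3 shared and 93.6% of 109 embryo-only peaks. DPY-28 overlapped 72.9%, 92.1% and 91.7% of the same sets, CAPG-1 74.8%, 94.5% and 99.1%, and DPY-27, the subunit found only in condensin IDC, 79.4%, 89.0% and 90.8%. These lists were wide on the X, where DPY-26, DPY-28 or CAPG-1 peaks covered 41.8% of all bases, and a peak overlaps them by 1 base more readily than that share. Counted by the centre alone, 82.2% of X L3-only, 94.5% of L3 shared and 99.1% of embryo-only peaks lay in one of them. Peaks of 2 or more of these non-SMC subunits (CAPG-1, DPY-28, DPY-26) overlapped 84 of 107 L3-only (78.5%), 117 of 127 L3 shared (92.1%) and 103 of 109 embryo-only peaks (94.5%). On the autosomes the same lists covered 0.238% and none of 1258 L3-only peaks overlapped 2 of them (0 of 1258, where a limit of 3 counts allows a share of up to 0.238%).

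Embryo peaks of condensin II subunits, SMC-4 and SCC-2 were less common at X L3-only sites than at the other X sites of KLE-2. HCP-6 overlapped 29.0% of X L3-only, 82.7% of L3 shared and 67.9% of embryo-only peaks, SMC-4 17.8%, 74.8% and 62.4%, and SCC-2 23.4%, 74.8% and 65.1%. A condensin I-IDC peak without HCP-6 or CAPG-2 lay at 56 of 107 L3-only (52.3%), 15 of 127 L3 shared (11.8%) and 31 of 109 embryo-only sites (28.4%). Neither kind lay at 16 of 107 L3-only, 4 of 127 L3 shared and 1 of 109 embryo-only sites. MIX-1, which all 3 condensins contain, overlapped 65.4% of X L3-only and 95.4% of embryo-only peaks.

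Seen from HCP-6 and CAPG-2, the L3 list reached about as many of their embryo peaks as the embryo KLE-2 list did on the autosomes. On the X it reached fewer. Of 1373 autosomal HCP-6 peaks, 873 (63.6%) overlapped an L3 KLE-2 peak and 817 (59.5%) an embryo KLE-2 peak. Of 304 X HCP-6 peaks, 138 (45.4%) overlapped an L3 and 180 (59.2%) an embryo KLE-2 peak. For CAPG-2 the shares were 85.6% for L3 and 79.2% for embryo KLE-2 peaks on the autosomes, and 66.9% and 78.2% on the X. SMC-4, MIX-1 and SCC-2 peaks met the L3 list less often in both places. On the autosomes SMC-4 peaks overlapped L3 KLE-2 peaks in 70.3% and embryo ones in 82.7% of cases. For MIX-1 peaks these shares were 58.3% and 70.9%, and for SCC-2 peaks 59.0% and 67.1%. AMA-1 went the other way on the autosomes, with 25.9% of 2158 peaks at an L3 and 18.2% at an embryo KLE-2 peak. Behind all these autosomal shares, the L3 list covered 5.08% and the embryo list 2.58% of the bases.

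KLE-2 peaks were also listed for embryos of TY1072, a strain with the alleles sdc-2(y74) on the X and her-1(e1520) on V. It lacks SDC-2, the protein that brings condensin IDC to the X, and is a genetically male tetraploid (AAAA XX). Per the study's methods, its X and autosomal reads were processed apart, because the X gave fewer reads than the autosomes. Its KLE-2 immunoprecipitations all used SDQ3942. This list held 201 peaks, of which 182 (90.5%) overlapped an L3 and 191 (95.02%) a wild-type embryo KLE-2 peak. Only 4 of them overlapped an L3 peak and no wild-type embryo peak, and 13 the reverse. On the X 20 of its 24 peaks overlapped an L3 peak and all 24 a wild-type embryo peak.

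The highest-scoring stage-only sites differed in which embryo lists they overlapped. The L3-only sites were chrI:13817079-13823171, chrII:10541584-10556312, chrIII:1176943-1189848, chrIV:4467698-4474560, chrV:5838624-5845067 and chrX:4141787-4148628, all at the cap. The site on II overlapped CAPG-2 and AMA-1 in wild-type embryos, and KLE-2 and SCC-2 in TY1072 embryos. Those on I and III overlapped no other list, and those on IV and V overlapped AMA-1 alone. The X site overlapped MIX-1, DPY-26, DPY-28, CAPG-1, DPY-27, SCC-2 and AMA-1, but neither HCP-6 nor CAPG-2. The next 3 were chrIII:1543839-1553680 and chrII:14600402-14609009, with no other peak, and chrII:8475671-8484297, with HCP-6, SCC-2 and AMA-1. All 9 were 6093 bp wide or wider, since ties at the cap were broken by width.

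Of the matching embryo-only sites, 4 on the autosomes overlapped HCP-6, CAPG-2, SMC-4, MIX-1 and SCC-2 together. These were chrII:7808615-7812892, chrIII:3271190-3272528, chrIV:6645356-6647697 and chrV:11313556-11314905, with scores of 2140.66, 3100, 3100 and 1600.23. The sites chrI:11384557-11386666 and chrX:17287699-17289163, with scores of 2797.63 and 3100, overlapped no other wild-type list. TY1072 embryos had a KLE-2 peak at the sites on III, IV, V and the X, and none at those on I and II. The next 3 were chrI:669298-671774 with HCP-6 and CAPG-2, chrIII:3278835-3279950 with HCP-6, and chrX:10196768-10197993 with 7 of the 8 other condensin subunits and SCC-2. The nearest L3 peak to these 9 sites was 2.89 to 21.5 kb away.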

How the data were processed

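Peak lists deposited by the authors were used as they stand. Per the labels and the study's methods, ChIP-seq reads were aligned with Bowtie 0.12.7 to C. elegans genome WS220, reads of the replicates of a group were pooled, MACS called peaks against input at a p-value cutoff of 1e-10, and peaks found in most single replicates were kept. The deposited score in each list is minus 10 times the log10 of the MACS p-value and reached at most 3100. Start and end were deposited counting the start from 0 and are given from 1, in WS220. No WS220 sequence or gene annotation was used here, so peaks carry no gene names and no sequence.

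Overlap of at least 1 base, covered bases, distances and exact Clopper-Pearson 95% intervals were computed in Python 3.11.15 with pandas 2.3.3 and scipy 1.17.1, and the overlap code was tested on simulated lists. A peak's centre decided its bin and its part of the chromosome. Chromosomes were taken to end at the farthest peak end among the lists. No depth per sample can be read from peak lists, and the number of peaks limits precision. The 11 columns of per-sample FPKM expression values were not used.

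The lists compared, the other proteins and the tests were chosen with earlier results of these data known. Regions named are the highest-scoring stage-only peak of each chromosome and the next 3 of each set, with ties broken by width and then position, the pair of each chromosome with the highest lower rank, the 5 widest L3 peaks, and the 5 bins of 1 Mb with the most stage-only peaks of each stage. Alternatives were another definition of overlap, score limits, merging of neighbours, removal of IgG sites, covered bases and outer parts of 25% of the length. The use of peak numbers, groups of peaks by score, the removal of the densest bin and the centre rule for condensin I-IDC peaks on the X were chosen after seeing the data.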

Additional observations from a re-analysis of the deposited data

How the results depend on the processing

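No paired analysis was possible because each stage is 1 pooled list and no result comes from a test. For the same reason no replicate could be left out. Of 72 alternative values for 14 results, 54 stayed within the 95% counting interval of the value reported and 18 did not, and the only comparison of L3 larvae with embryos to turn round in direction was that of the outer parts of the autosomes, whose intervals overlapped as reported. With L3 peaks reduced by score to the 1474 of the embryo list, 56.7% of L3 and 57.6% of embryo peaks overlapped, the X held 8.28% of L3 peaks, the outer parts held 68.1% of autosomal L3 and 66.2% of autosomal embryo peaks, and the median L3 width was 1601.5 bp. With peaks at or above the median score of each list, 39.9% of L3 and 65.5% of embryo peaks overlapped, and the X held 7.92% of L3 peaks. The outer parts then held 69.6% of autosomal L3 and 68.7% of autosomal embryo peaks, median widths were 1667 bp in L3 larvae and 1500 bp in embryos, and HCP-6 or CAPG-2 overlapped 33.5% of L3-only, 85.5% of L3 shared and 83.1% of embryo-only peaks. Here a peak counts as stage-only also where the other stage has a low-scoring peak. With the centre of a peak required to lie in the other peak, 40.8% of L3 peaks overlapped. Outer parts of 25% of the length on each side, in place of 33.3%, held 48.5% of autosomal L3 and 49.7% of autosomal embryo peaks. Before the replicate filter the X took 10.997% of L3 calls. Without the bin from 1 to 2 Mb of III, 43.8% of L3 peaks overlapped an embryo peak and 23.3% of L3-only peaks overlapped HCP-6 or CAPG-2. Depth, which the lists do not give, limits how many weak sites either stage could show, and no error between replicates could be given for any value.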
